A study of Mus musculus with 12 samples.

Results

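The genes described here are the keratins, the claudins and 2 epithelial adhesion molecules, Epcam and Cdh1. They were chosen by name alone: every gene symbol of the platform annotation that begins with Krt or Cldn and goes on with a digit, with Epcam and Cdh1 added. Of 18194 genes measured, 74 met this rule, namely 48 keratins, 24 claudins and the 2 adhesion molecules. Each gene was read from 1 probe set, the brightest on average among those that name no other gene. Of the probe sets used, 8 have names ending in _x_at or _s_at, a kind that may also match other transcripts.

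Keratins are the intermediate filament proteins of epithelial cells, and each filament pairs a type I with a type II keratin. Krt8 and Krt18 are the usual pair of simple, single-layered epithelia, where Krt7, Krt19 and Krt20 also occur, while Krt5, Krt14 and their relatives belong to stratified epithelia and a further set builds hair. Claudins are the membrane proteins of tight junctions: some seal the space between cells, and others, such as Cldn2, Cldn10 and Cldn15, form channels for ions. Cdh1 is E-cadherin, the adhesion molecule of adherens junctions, and Epcam is a surface adhesion protein of most simple epithelia. Signalling by TGF-beta through Smad3 is known to lower several of these genes when epithelial cells take on mesenchymal features.

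The study measured total RNA of mice on 12 Affymetrix arrays, 2 per group, under a title on blocking TGF-beta and Smad3 signalling in obesity and diabetes. In the diet and genotype experiment, Smad3-/- mice on a high fat diet (HFD, 55% fat), wild type (WT) mice on that diet, Smad3-/- mice on regular diet (RD) and WT mice on RD were compared. The Smad3-/- mice were of mixed C57BL/6 and NIH Black Swiss background and the WT mice C57BL/6, so genotype and strain background cannot be told apart. In the antibody experiment, mice made obese by diet (C57J/B6) received the anti-TGF-beta antibody 1D11 or the control IgG 13C4 by intraperitoneal injection 3 times a week for 8 weeks. The labels give neither the tissue, nor the animals' age, nor whether the 2 arrays of a group came from separate animals. A p-value here rests on how far the arrays of a group lay apart, pooled over the 6 groups. The test also draws this spread toward that of other genes of similar intensity. The distance between arrays of a group may be technical only.

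Values are log2 RMA intensities, with array medians of 6.32 to 6.39 in the diet and genotype experiment and 6.03 to 6.04 in the antibody experiment. All differences were therefore taken within an experiment. Replicate arrays differed with an SD of 0.182 to 0.214 over all genes. The brightest Smad3 probe set gave 9.14 and 9.03 in Smad3-/- HFD against 8.88 and 8.95 in WT HFD, and 9.10 and 9.17 in Smad3-/- RD against 8.86 and 8.94 in WT RD. It was thus not lower on the arrays labelled Smad3-/-, and its place relative to the deletion is unknown here, so it does not check the labels and every direction below rests on them. Among cell type marker lists, fat cell genes averaged 11.33 to 13.41 on all 12 arrays, while 7 measured epididymis genes averaged 7.62 to 7.87 in Smad3-/- HFD, 8.67 to 8.79 in WT HFD, 13.06 to 13.07 in Smad3-/- RD and 6.43 to 6.51 in WT RD.

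Promoter sequences were available for 52 of the 74 genes in a RefSeq table of the mouse build GRCm38.p6. The 250 bases before the start site are shown, 5′ to 3′ on the gene's own strand, for the adjacent keratin pair Krt8 and Krt18, for the claudins Cldn2 and Cldn3, which had among the largest differences below, and for Epcam. Capitals mark any match, on either strand, to 4 motifs: CACCTG, whose reverse complement is CAGGTG, an E-box bound by Snail and Zeb factors; GGGCGG, with the reverse complement CCGCCC, the GC box of Sp factors; TATAAA, with the reverse complement TTTATA, the TATA box; and GCCNNNGGC, an AP-2 site, which reads the same on both strands.
Krt8: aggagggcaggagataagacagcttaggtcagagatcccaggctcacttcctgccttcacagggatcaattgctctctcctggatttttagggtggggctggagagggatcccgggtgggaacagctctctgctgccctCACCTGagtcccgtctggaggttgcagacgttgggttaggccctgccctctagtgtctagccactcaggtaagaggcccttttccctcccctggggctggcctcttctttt
Krt18: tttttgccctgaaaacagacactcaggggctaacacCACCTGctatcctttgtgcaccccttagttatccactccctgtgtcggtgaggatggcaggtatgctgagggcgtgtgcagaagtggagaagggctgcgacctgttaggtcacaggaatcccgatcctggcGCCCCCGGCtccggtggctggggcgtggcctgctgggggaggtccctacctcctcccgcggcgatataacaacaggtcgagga
Cldn2: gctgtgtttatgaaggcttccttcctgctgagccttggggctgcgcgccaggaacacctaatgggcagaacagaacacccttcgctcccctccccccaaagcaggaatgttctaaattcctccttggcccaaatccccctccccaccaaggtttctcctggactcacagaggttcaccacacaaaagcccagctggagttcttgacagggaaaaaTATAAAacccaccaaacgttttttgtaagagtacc
Cldn3: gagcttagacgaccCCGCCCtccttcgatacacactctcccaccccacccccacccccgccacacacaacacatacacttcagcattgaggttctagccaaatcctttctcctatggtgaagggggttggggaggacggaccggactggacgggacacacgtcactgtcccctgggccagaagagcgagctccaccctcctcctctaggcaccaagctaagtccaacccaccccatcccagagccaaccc
Epcam: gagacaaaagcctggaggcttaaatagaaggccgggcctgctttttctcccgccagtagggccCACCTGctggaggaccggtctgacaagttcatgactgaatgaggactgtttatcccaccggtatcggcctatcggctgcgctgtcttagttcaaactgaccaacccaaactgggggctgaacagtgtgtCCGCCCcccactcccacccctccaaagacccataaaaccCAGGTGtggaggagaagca

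The Krt8 window lies at chr15:102004343-102004592 on the minus strand and that of Krt18 at chr15:102027966-102028215 on the plus strand. The Cldn2 window is chrX:139800558-139800807, that of Cldn3 chr5:134985964-134986213 and that of Epcam chr17:87635729-87635978, all on the plus strand. Krt8 and Krt18 are neighbours in the annotation, as are Cldn3 and Cldn4. In the windows shown, Krt8 and Krt18 had 1 E-box each and Epcam 2. Cldn2 had 1 TATA box, Cldn3 and Epcam had 1 GC box each, and Krt18 had 1 AP-2 site. Over the 52 promoters, 26.9% held the E-box against 17.1% of 27025 promoters in the table, 34.6% the TATA box against 13.0%, 21.2% the GC box against 32.9% and 7.69% the AP-2 site against 13.6%. Motifs were counted even where they overlap one another, and a match is only a match of letters.

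Most of these genes lay near or below the median of the arrays. A line was drawn 1 log2 unit above each array's median over all 45101 probe sets, that is at 7.32 to 7.39 in the diet and genotype experiment and at 7.03 to 7.04 in the antibody experiment. On all 12 arrays, 46 of the 74 genes (62.2%) stayed below it, against 39.6% of all genes. Such genes are called near the median below, although the rule sets no lower bound and some lay far under the median. Krt25, for example, was at 3.36 and 3.34 in the anti-TGF-beta group, where it came nearest to the line. On both arrays of at least 1 group, 24 genes were above it, and Cldn12, Krt4, Krt7 and Krt23 were above it on scattered arrays only. No detection calls were used here, so a value near the median does not show that a gene is silent.

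The genes above the line were unevenly spread over the families. Of the 20 hair and follicle keratins 15 stayed below it, as did 13 of the 17 stratified epithelial keratins and 15 of the 21 other claudins. Of the 6 simple epithelial keratins only Krt20 did, and none of the 3 channel-forming claudins set apart here (Cldn2, Cldn10 and Cldn15) or the 2 adhesion molecules. By group, 16 genes were above the line in Smad3-/- HFD, 21 in WT HFD, 20 in Smad3-/- RD and 17 in WT RD, and 11 in the anti-TGF-beta group against 8 in the IgG group.

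Genes just inside the line were Cldn4, at 7.53 and 7.83 in Smad3-/- RD, and Krt88, at 7.20 and 7.32 in the anti-TGF-beta group. Just outside were Krt4, at 7.36 and 7.31 in WT RD, and Cldn23, at 7.27 and 7.30 in WT HFD. The genes above the line were Epcam and Cdh1, Cldn2, Cldn3, Cldn4, Cldn5, Cldn7, Cldn10, Cldn15 and Cldn22, and Krt5, Krt6b, Krt8, Krt18, Krt19, Krt32, Krt33b, Krt42, Krt75, Krt78, Krt79, Krt81, Krt83 and Krt88. Of the 28 genes not below the line everywhere, 12 passed the test in none of the 6 comparisons, among them the hair keratins Krt32, Krt33b, Krt75, Krt81 and Krt83 and the stratified keratins Krt4, Krt5, Krt6b and Krt78.

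**Figure D1:**
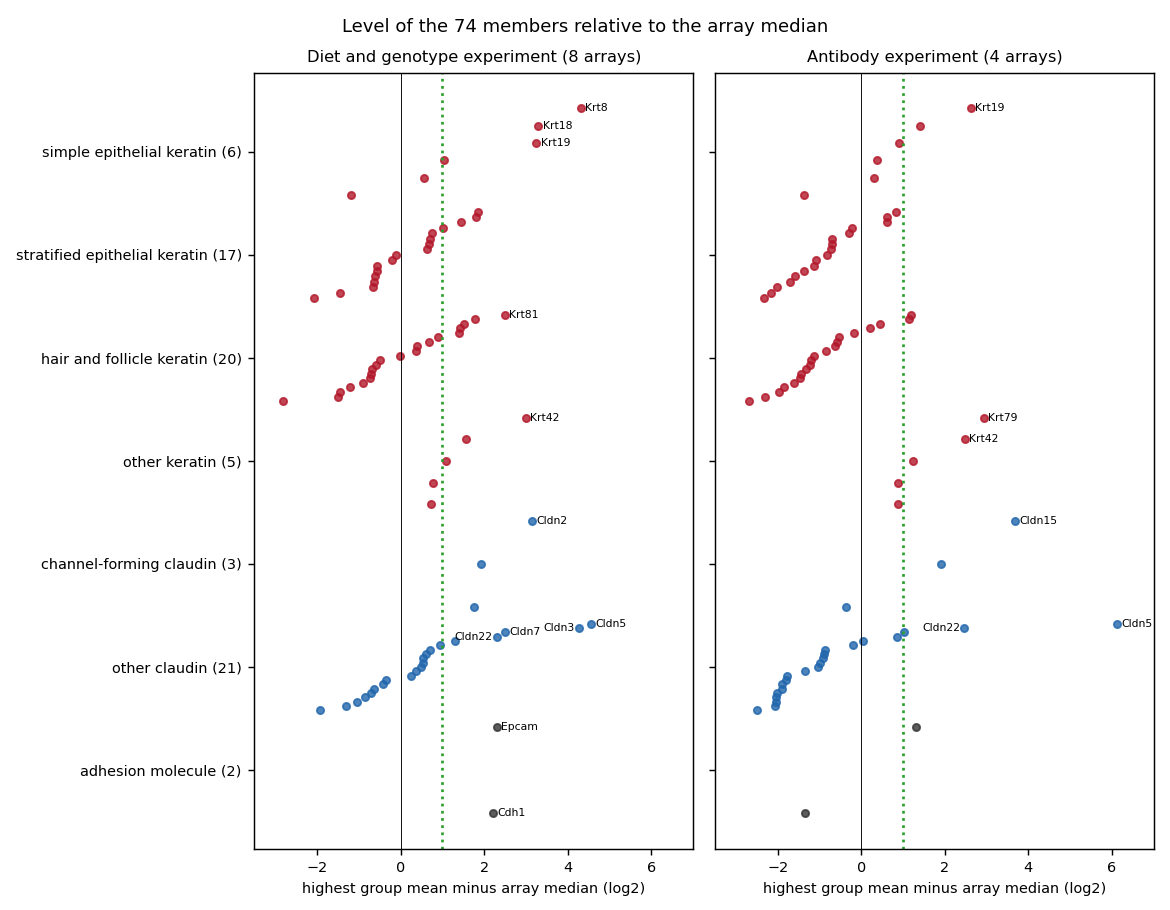
Highest group mean minus array median (log2, horizontal) for each of the 74 genes by family (number of genes in brackets), with the diet and genotype experiment on the left and the antibody experiment on the right; the dotted line is 1 log2 unit above the median, and genes over 2 are named. Distances of different probe sets are not comparable as amounts of RNA.

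Differences between groups were tested with limma over all 18194 genes, and a gene is said to have changed where its adjusted p was under 0.05 (Benjamini-Hochberg). Of the 74 genes, 28 (37.8%) changed in at least 1 of 6 comparisons, against 44.9% of all genes, and 46 in none. Of the 46 genes that stayed near the median, 12 changed in some comparison. The same share over all genes near the median was not counted.

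On regular diet, the central keratins of simple epithelia, several claudins and E-cadherin were higher in Smad3-/- than in WT. Of the 74 genes, 12 were higher (16.2%, against 8.40% of all genes) and 5 lower (6.76%, against 15.6% of all genes), with a median difference of 0.17 against 0.04 over all genes. The largest differences were those of Cldn2, Krt18, Cldn3 and Cldn7. On high fat diet, the direction was turned: 1 gene was higher (1.35%, against 4.74% of all genes) and 10 were lower (13.5%, against 6.05%), with a median of -0.03 against -0.01. In bulk tissue, fewer cells of a type and less RNA per cell cannot be told apart.

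Krt8, the type II keratin of simple epithelia, was at 8.98 and 9.15 in Smad3-/- HFD, 10.60 and 10.74 in WT HFD, 10.70 and 10.56 in Smad3-/- RD and 9.43 and 9.60 in WT RD. The groups of neither genotype comparison overlapped, and the higher group was WT on HFD and Smad3-/- on RD. The genotype difference (Smad3-/- minus WT) was -1.60 ± 0.12 (SE) on HFD, a 3.03-fold lower value, and 1.12 ± 0.12 on RD, a 2.17-fold higher one (adjusted p 5.2e-11 and 1.7e-08, limma). Its 3 probe sets shared these directions, with -1.60, -1.48 and -1.40 on HFD and 1.12, 1.17 and 1.07 on RD.

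Krt18, the type I partner of Krt8, was at 7.82 and 7.83 in Smad3-/- HFD, 9.29 and 9.67 in WT HFD, 9.73 and 9.63 in Smad3-/- RD and 7.71 and 7.46 in WT RD. Again the genotypes were apart on each diet and in opposite order. Its genotype difference was -1.65 ± 0.13 on HFD (3.15-fold lower) and 2.10 ± 0.13 on RD (4.28-fold higher). Both keratins of the pair thus moved with the same sign in each genotype comparison.

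Cldn2, a claudin that forms a channel for small cations and water, was at 7.09 and 6.68 in Smad3-/- HFD, 7.92 and 8.13 in WT HFD, 9.55 and 9.49 in Smad3-/- RD and 6.78 and 6.95 in WT RD. It passed the line only in WT HFD and Smad3-/- RD. The genotype difference was -1.14 ± 0.15 on HFD (2.20-fold lower) and 2.66 ± 0.15 on RD (6.32-fold higher). Its second probe set gave -0.22 on HFD, not past the test (adjusted p 0.46, limma over all probe sets), and a smaller 1.06 on RD.

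Cldn3, a sealing claudin of many simple epithelia, was at 9.29 and 9.44 in Smad3-/- HFD, 9.93 and 9.95 in WT HFD, 10.73 and 10.57 in Smad3-/- RD and 8.78 and 8.71 in WT RD. It was above the line in all 4 groups, with the genotypes apart on each diet. The difference was -0.57 ± 0.12 on HFD and 1.90 ± 0.12 on RD (3.74-fold higher). Its other 3 probe sets gave -1.06 to -1.27 on HFD and 2.28 to 2.61 on RD.

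Cldn7, which lies along the sides of epithelial cells and binds Epcam, was at 7.07 and 7.12 in Smad3-/- HFD, 8.21 and 8.53 in WT HFD, 9.06 and 8.71 in Smad3-/- RD and 7.42 and 7.21 in WT RD. Cdh1 was at 7.20 and 7.15 in Smad3-/- HFD, 8.28 and 8.84 in WT HFD, 7.74 and 8.33 in Smad3-/- RD and 7.06 and 7.16 in WT RD. Both had higher values in WT on HFD and in Smad3-/- on RD, with no overlap of the genotypes. The genotype difference of Cldn7 was -1.27 ± 0.15 on HFD and 1.57 ± 0.15 on RD, and that of Cdh1 was -1.38 ± 0.18 on HFD and 0.93 ± 0.18 on RD.

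Cldn10, a claudin with splice forms that carry cations or anions, was at 6.86 and 6.89 in Smad3-/- HFD, 7.36 and 7.36 in WT HFD, 8.12 and 8.18 in Smad3-/- RD and 7.31 and 7.36 in WT RD. The Smad3-/- RD arrays stood above the rest and the Smad3-/- HFD arrays below. The genotype difference was -0.49 ± 0.12 on HFD and 0.81 ± 0.12 on RD. The HFD difference was no longer past the test without Smad3-/- HFD array a (-0.47, adjusted p 0.0503 in limma).

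In all, 7 genes were lower in Smad3-/- on HFD and higher in Smad3-/- on RD: Krt8, Krt18, Cldn2, Cldn3, Cldn7, Cldn10 and Cdh1. These comparisons share no arrays. How many of all genes had both calls in these directions was not counted. Only Cldn22 was higher on HFD and lower on RD, and only Krt19 was lower on both. For these 7 genes both genotype calls stood in every other setting tried, except the HFD calls of Cldn10 without 1 array and of Cldn2 on its second probe set, both given above.

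**Figure D2:**
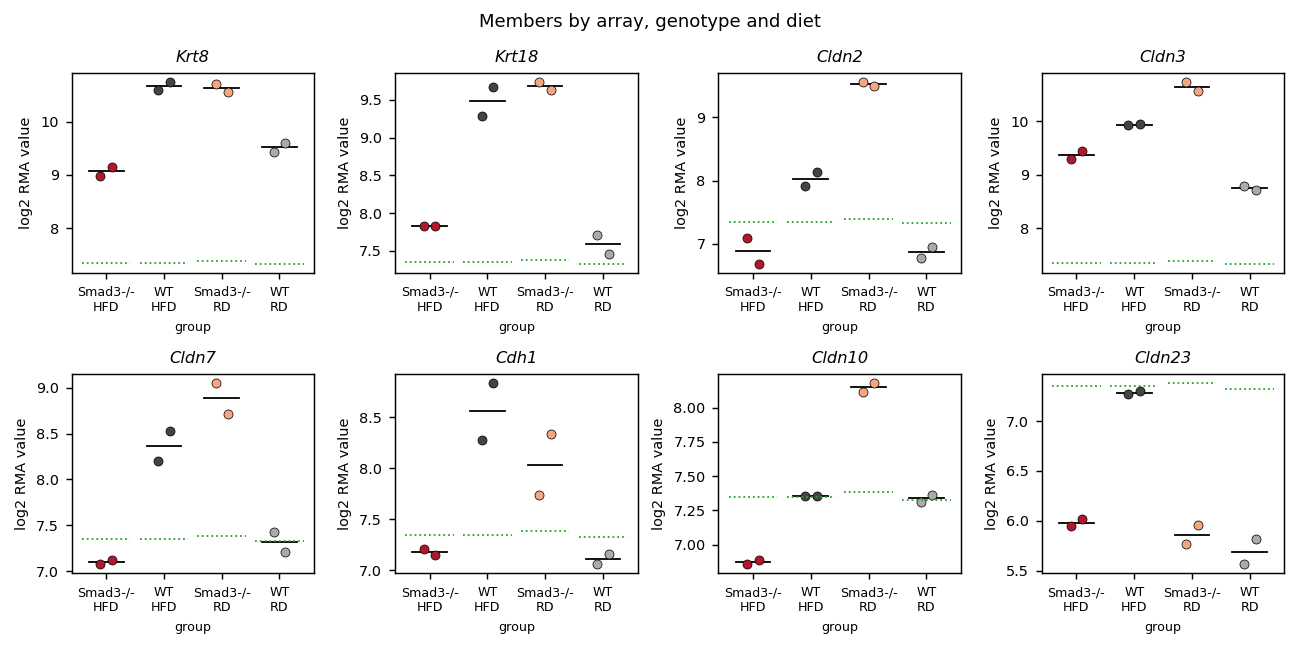
Log2 RMA value (vertical) on each array of the 4 groups of the diet and genotype experiment for 8 genes; points are arrays, black bars group means of 2 arrays and dotted lines 1 log2 unit above the array median. In the first 7 panels Smad3-/- lies below WT on high fat diet (HFD) and above it on regular diet (RD), and Cldn23 is raised in WT HFD alone of the 4 groups.

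Epididymis marker genes that changed by genotype had the signs of these 7 genes. The epididymis list (lipocalins, Gpx5, Adam7 and others) had 4 of 7 measured genes lower in Smad3-/- on HFD and 7 of 7 higher on RD, with a median difference of -0.86 and 6.59 and the levels given above, and none of the list stayed near the median on all arrays. Of the mammary gland list, 5 of 7 stayed near the median, 0 changed on HFD and 1 was higher on RD (Csn2, 0.41), and its mean level was 6.24 to 6.31 in Smad3-/- HFD, 6.28 to 6.30 in WT HFD, 6.35 to 6.41 in Smad3-/- RD and 6.20 to 6.22 in WT RD. The skin epithelium list had 5 of 7 near the median, 0 changed on HFD, 2 higher (Ivl, 0.46, and Trp63, 0.46) and 1 lower (Sbsn, -0.85) on RD, and mean levels of 6.40 to 6.65 on the 8 arrays. Skeletal muscle genes were higher in Smad3-/- on HFD for 6 of 6, at 11.32 to 11.48 against 5.98 to 6.18 in WT HFD, and fat cell genes were lower in Smad3-/- on RD for 3 of 4, at 11.33 to 11.35 against 13.00 to 13.09 in WT RD. Sertoli cell genes changed for 0 of 6 on HFD and 1 of 6 on RD (higher), and oligodendrocyte genes for 0 of 4 on either diet. Beside these counts, 4.74% of all genes were higher and 6.05% lower in Smad3-/- on HFD, and 8.40% and 15.6% on RD. The part of other tissues in the differences of keratins and claudins was not tested.

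Further genes were higher in Smad3-/- on RD alone of the 2 genotype comparisons. Krt15, a type I keratin of basal cells and of some glands, was at 6.22 and 6.12 in Smad3-/- RD against 5.17 and 5.16 in WT RD, a difference of 1.01 ± 0.15. Cldn4, the neighbour of Cldn3 and likewise a claudin of many simple epithelia, was at 7.53 and 7.83 in Smad3-/- RD against 6.94 and 7.06 in WT RD, a difference of 0.68 ± 0.15. In both genes the Smad3-/- arrays were above the WT arrays, and on HFD the differences were 0.02 for Krt15 and 0.00 for Cldn4. Smaller increases were those of Krt42 (0.41 ± 0.11), Krt36 (0.46 ± 0.15) and Cldn1 (0.44 ± 0.14).

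The 3 smaller increases were less secure. Krt36 and Cldn1 lost their call whichever of the 4 arrays was left out (adjusted p 0.0505 to 0.158 for Krt36 and 0.0603 to 0.134 for Cldn1, limma). Krt42 lost it without WT RD array a (adjusted p 0.0514) and without Smad3-/- RD array b (adjusted p 0.0928). For Cldn1, 1 of 3 other probe sets even had the opposite sign (-0.05).

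Cldn23, a claudin of the gut and other epithelia, differed by genotype on HFD only. It was at 5.94 and 6.02 in Smad3-/- HFD against 7.27 and 7.30 in WT HFD, a difference of -1.30 ± 0.14, and at 5.77 and 5.95 in Smad3-/- RD against 5.56 and 5.81 in WT RD, which was not past the test (0.17). The WT HFD arrays were the only ones near the line. Cldn12 differed by -0.48 ± 0.14 on HFD, a call lost whichever of the 4 arrays was left out (adjusted p 0.0608 to 0.169, limma).

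Of the 5 genes lower in Smad3-/- on RD, Cldn5 and Krt19 had the largest differences. Cldn5, the claudin of endothelial tight junctions, was at 9.88 and 9.39 in Smad3-/- RD against 10.93 and 10.84 in WT RD, a difference of -1.25 ± 0.12. On HFD it was at 10.11 and 10.34 in Smad3-/- against 10.32 and 10.47 in WT, where the groups overlapped (-0.17). Of the endothelial list, 4 of 8 genes were lower in Smad3-/- on RD (50%, against 15.6% of all genes) and none higher. Its mean levels were 7.43 to 7.50 in Smad3-/- RD against 7.77 to 7.79 in WT RD. The part of this list in the Cldn5 difference was not tested.

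Krt19, the smallest keratin and one without a tail domain, was at 6.24 and 6.54 in Smad3-/- HFD, 7.18 and 7.07 in WT HFD, 8.62 and 8.12 in Smad3-/- RD and 9.65 and 9.50 in WT RD. On each diet Smad3-/- was below WT, by -0.74 ± 0.15 on HFD and -1.20 ± 0.15 on RD. It therefore differed in direction on RD from the simple keratins Krt8 and Krt18. In mesothelium, where Krt19 is also made, the markers Upk3b and Msln were lower in Smad3-/- on RD by -2.10 and -1.56, with 3 of 7 markers lower and 1 higher, and the mesothelium list averaged 6.09 to 6.28 in Smad3-/- RD against 6.76 to 6.77 in WT RD. On HFD 1 marker, Upk3b, was higher (0.67). Of all genes, 8.40% were higher and 15.6% lower on RD, and 4.74% were higher on HFD. The part of the mesothelial markers in the Krt19 difference was not tested.

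Krt79 and Cldn15 were also lower in Smad3-/- on RD. Krt79, a keratin of hair follicle ducts and sebaceous glands, was at 7.33 and 6.73 in Smad3-/- RD against 7.99 and 7.78 in WT RD (-0.86 ± 0.14, and -0.56 without Smad3-/- RD array b, still past the test). Cldn15, a cation channel of the gut that occurs in other epithelia and in mesothelium, was at 7.22 and 7.64 in Smad3-/- RD against 8.16 and 8.33 in WT RD (-0.81 ± 0.13). Neither passed the test on HFD (-0.41 and -0.32).

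Cldn22 was the only claudin called higher in Smad3-/- on HFD. It was at 8.53 and 8.77 in Smad3-/- HFD, 7.89 and 7.69 in WT HFD, 8.21 and 7.98 in Smad3-/- RD and 8.54 and 8.44 in WT RD. The genotype difference was 0.86 ± 0.12 on HFD and -0.39 ± 0.12 on RD. The RD call was lost without WT RD array a (-0.34, adjusted p 0.146 in limma) and without Smad3-/- RD array b (-0.28, adjusted p 0.226), and under quantile normalization over the 12 arrays (-0.31, adjusted p 0.0677).

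**Figure D3:**
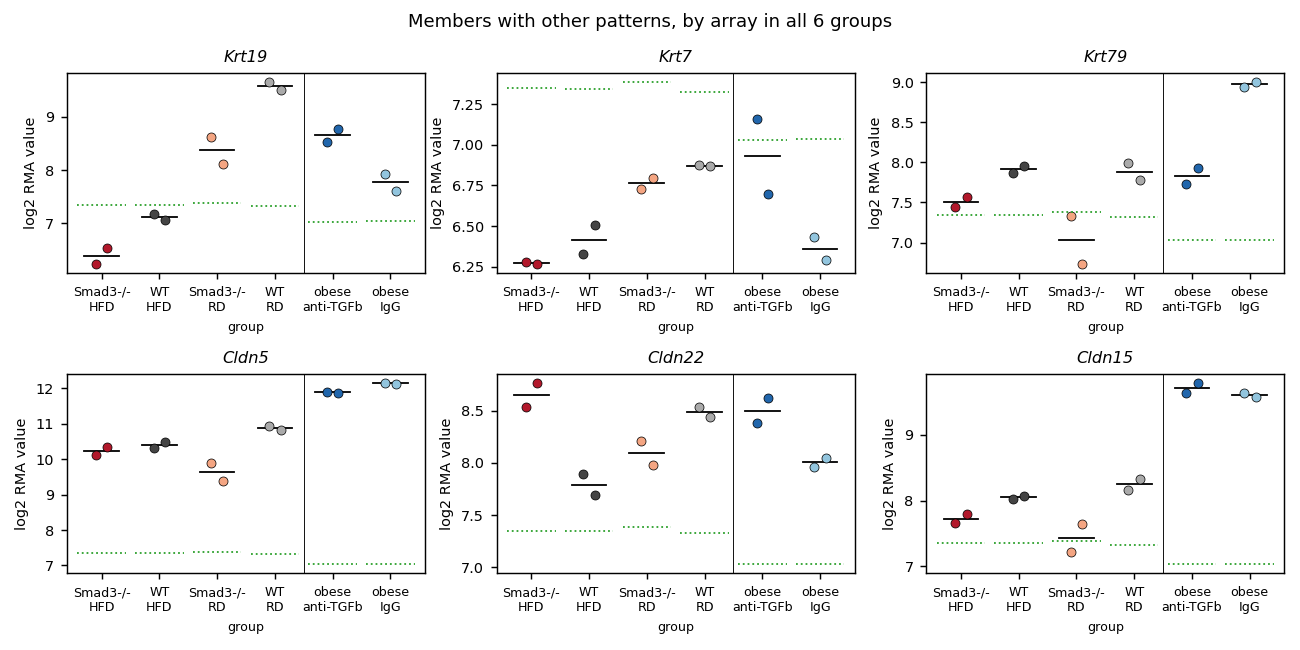
Log2 RMA value (vertical) on each array of all 6 groups for 6 genes. Unlike Krt8 and Krt18, they were not higher in Smad3-/- than in WT on regular diet. Points are arrays, black bars group means and dotted lines 1 log2 unit above the array median. The vertical rule parts the 2 experiments, whose levels are not to be compared. Krt19 is lower on high fat than on regular diet in both genotypes, and Krt79 is lower with the antibody.

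The diet comparisons use the same 8 arrays as the genotype comparisons, so they are another reading of the same values and not separate evidence. In Smad3-/- mice, 3 genes were higher on HFD (4.05%, against 11.5% of all genes) and 17 lower (23.0%, against 5.82%). In WT mice, 7 were higher on HFD (9.46%, against 4.69%) and 4 lower (5.41%, against 6.11%). The median difference was -0.12 in Smad3-/- (-0.004 over all genes) and 0.017 in WT (0.02 over all genes). The count of genes changed in Smad3-/- mice was 12 rather than 20 without Smad3-/- RD array b, and likewise 12 without Smad3-/- HFD array b.

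Krt8, Krt18, Cldn2, Cldn3, Cldn7 and Cdh1 were lower on HFD in Smad3-/- and higher on HFD in WT. The share of all genes with these opposite directions was not counted. Krt18 differed by -1.86 ± 0.13 in Smad3-/- and 1.90 ± 0.13 in WT, and Krt8 by -1.56 ± 0.12 in Smad3-/- and 1.16 ± 0.12 in WT. Cldn2 differed by -2.64 ± 0.15 in Smad3-/- and 1.16 ± 0.15 in WT. For Cldn7 the differences were -1.79 in Smad3-/- and 1.05 in WT, for Cldn3 -1.28 and 1.20, and for Cdh1 -0.86 and 1.45. Without Smad3-/- RD array b, Cdh1 in Smad3-/- mice was at -0.56 and no longer past the test (adjusted p 0.0723, limma).

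Other claudins changed with diet in 1 genotype. In Smad3-/- mice Cldn10 differed by -1.28 ± 0.12, Cldn4 by -0.91 ± 0.15 and Cldn8 by -0.78 ± 0.18, while in WT mice these differences were 0.02, -0.23 and -0.17 and none passed. Cldn8 was at 5.95 and 6.32 in Smad3-/- HFD against 6.75 and 7.07 in Smad3-/- RD, and its call was lost without Smad3-/- RD array b (adjusted p 0.0697, limma) or Smad3-/- HFD array a (adjusted p 0.0717). Cldn23 was 1.59 ± 0.14 higher on HFD in WT and not past the test in Smad3-/- (0.12).

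Krt19 was lower on HFD in both genotypes. The difference was -1.98 ± 0.15 in Smad3-/- (3.96-fold lower) and -2.45 ± 0.15 in WT (5.45-fold lower), and in neither genotype did the diets overlap. Of the 7 mesothelial markers, 2 were higher and 1 lower on HFD in Smad3-/- (Msln 1.01, Upk3b 1.98, Upk1b -0.38) and 0 higher and 2 lower in WT (Msln -0.65, Upk3b -0.79). Krt7, another keratin of simple epithelia and of mesothelium, had -0.49 ± 0.15 in Smad3-/- and -0.46 ± 0.15 in WT. It was at 6.28 and 6.27 in Smad3-/- HFD against 6.73 and 6.80 in Smad3-/- RD, and at 6.33 and 6.50 in WT HFD against 6.88 and 6.87 in WT RD, with no overlap. Both calls of Krt7 were lost whichever array was left out (adjusted p 0.0550 to 0.116 in Smad3-/- and 0.0610 to 0.307 in WT, limma).

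Cldn5 and Cldn22 had the opposite signs to Krt8. Cldn5 differed with diet by 0.59 ± 0.12 in Smad3-/- and -0.49 ± 0.12 in WT, and Cldn22 by 0.56 ± 0.12 and -0.70 ± 0.12. Without Smad3-/- RD array b the first Cldn5 value was 0.35, still past the test, and the second lost its call without WT RD array a (adjusted p 0.0935, limma) or WT HFD array a (adjusted p 0.0982). The Cldn22 call in Smad3-/- was lost without Smad3-/- HFD array b (adjusted p 0.0641). Endothelial genes were higher on HFD in Smad3-/- for 5 of 8 (62.5%, against 11.5% of all genes) and in WT for none (against 4.69%).

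The remaining genes that changed with diet in Smad3-/- mice were keratins with smaller differences. Krt15 differed by -0.63 ± 0.15, Krt14 by -0.59 ± 0.15, Krt76 by -0.51 ± 0.17, Krt34 by -0.44 ± 0.14, Krt42 by -0.32 ± 0.11 and Krt79 by 0.48 ± 0.14, and the claudin Cldn1 by -0.48 ± 0.14. Without Smad3-/- RD array b, Krt14, Krt34, Krt42, Krt76, Krt79 and Cldn1 all lost their calls, at -0.43, -0.41, -0.21, -0.36, 0.18 and -0.51. Without Smad3-/- HFD array b the same 6 genes also lost them. Krt15 kept its call in both cases.

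The interaction compares the genotype difference on HFD with that on RD. Of the 74 genes, 2 had a positive interaction (2.7%, against 12.0% of all genes) and 13 a negative one (17.6%, against 6.77%), with a median of -0.127 against -0.025 over all genes. The largest were -3.80 ± 0.21 for Cldn2, -3.75 ± 0.18 for Krt18, -2.84 ± 0.21 for Cldn7, -2.72 ± 0.17 for Krt8, -2.48 ± 0.16 for Cldn3 and -2.30 ± 0.25 for Cdh1. Positive ones were Cldn22 at 1.25 ± 0.18 and Cldn5 at 1.08 ± 0.17. Krt19 had 0.46, which did not pass. All 7 epididymis genes measured had a negative interaction, with a median of -7.03.

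**Figure D4:**
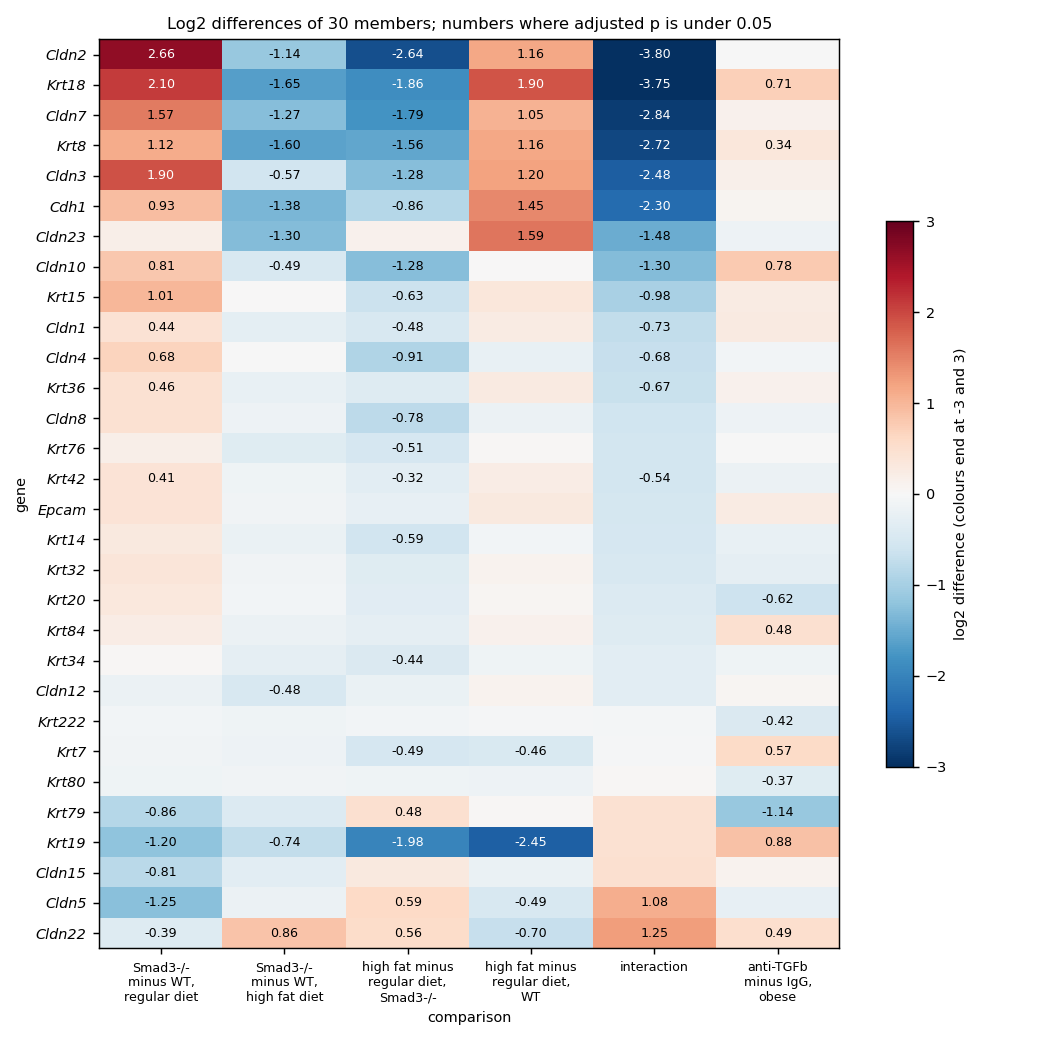
Log2 difference (colour) of the 30 genes named by rule, in the 6 comparisons; a number stands in each cell with an adjusted p under 0.05 (limma). Rows are ordered by the interaction, from Cldn2 at -3.80 to Cldn22 at 1.25.

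Epcam is an exception that depends on the probe set, and the one used here has a name ending in _x_at. On the brighter one, which the rule takes, it was at 8.55 and 8.34 in Smad3-/- HFD, 8.49 and 8.63 in WT HFD, 8.55 and 8.84 in Smad3-/- RD and 7.84 and 8.70 in WT RD. The WT RD arrays lay far apart, the groups on RD overlapped, and no comparison passed the test (-0.11 on HFD, 0.42 on RD). On the other probe set it was at 8.42 and 8.34 in Smad3-/- HFD, 9.95 and 9.94 in WT HFD, 10.59 and 10.25 in Smad3-/- RD and 8.23 and 8.12 in WT RD. There the genotype difference was -1.56 on HFD and 2.24 on RD, and the interaction -3.81 (adjusted p 7.67e-10, 1.55e-13 and 6.54e-15, limma over all probe sets). In WT HFD and Smad3-/- RD this second probe set was the brighter of the 2, while on the antibody arrays the one taken by the rule was. The second probe set was chosen for display after its values were seen.

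**Figure D5:**
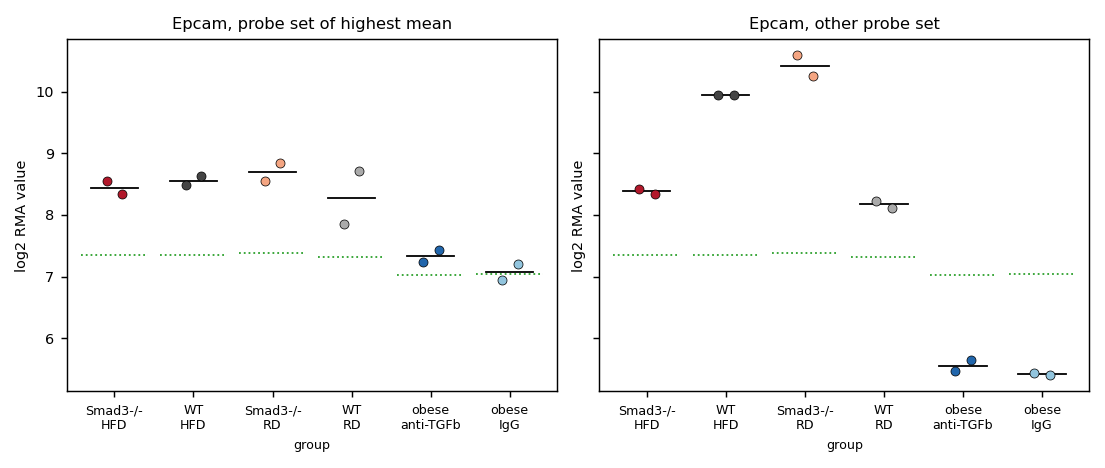
Log2 RMA value (vertical) of both Epcam probe sets on each array of the 6 groups; points are arrays, black bars group means and dotted lines 1 log2 unit above the array median. The probe set of highest mean passed the test in no comparison, while the other is at 9.94 or more in WT HFD and Smad3-/- RD and at 8.42 or less in the other 2 groups of that experiment.

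In obese mice given the anti-TGF-beta antibody, Krt18 and Krt19 were higher and Krt79 was lower than with IgG. The higher calls of Krt7 and Krt8 were not stable. Of the 74 genes, 7 were higher with the antibody than with IgG (9.46%, against 11.7% of all genes) and 4 lower (5.41%, against 12.6%), with a median of -0.004 against -0.003 over all genes. Both shares were below the background. Of the 6 simple epithelial keratins, 4 were higher (Krt7, Krt8, Krt18 and Krt19) and Krt20 lower. Without anti-TGF-beta array b fewer changed, both of the 74 genes and of all genes.

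Krt19 was at 8.53 and 8.77 with the antibody against 7.92 and 7.61 with IgG, a difference of 0.88 ± 0.15 (1.84-fold). Krt18 was at 6.38 and 6.41 with the antibody against 5.76 and 5.61 with IgG, a difference of 0.71 ± 0.13. The groups were apart in both genes. Krt19 was above the line in both groups, while Krt18 stayed below it on every array of this experiment. Krt7 was at 7.16 and 6.70 with the antibody against 6.43 and 6.29 with IgG (0.57 ± 0.15), and Krt8 at 7.27 and 7.58 against 7.00 and 7.18 (0.34 ± 0.12).

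The calls of Krt7 and Krt8 were not stable. That of Krt7 was lost without anti-TGF-beta array a (0.34, adjusted p 0.167 in limma) and under quantile normalization (0.41, adjusted p 0.0546). That of Krt8 was lost without IgG array a (0.25, adjusted p 0.28) and without anti-TGF-beta array b (0.18, adjusted p 0.453), and also without the intensity trend (adjusted p 0.0775), under quantile normalization (0.24, adjusted p 0.12) and with the arrays of that experiment alone (adjusted p 0.102). Its 2 other probe sets gave 0.51, past the test, and 0.22, not past it. Krt20, a keratin of gut and urinary epithelium, was at 3.93 and 4.18 with the antibody against 4.69 and 4.66 with IgG (-0.62 ± 0.15). All these values lay under the array medians.

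Among claudins, on the probe sets used, only Cldn10 and Cldn22 changed with the antibody. Cldn10 was at 7.99 and 7.89 with the antibody against 7.18 and 7.13 with IgG (0.78 ± 0.12), and Cldn22 at 8.38 and 8.62 against 7.96 and 8.04 (0.49 ± 0.12). The Cldn22 call was lost without anti-TGF-beta array b (0.37, adjusted p 0.102 in limma). Cldn2, Cldn3 and Cldn7 were at -0.01, 0.14 and 0.14 and Cdh1 at 0.08, none past the test. Other probe sets passed it for Cldn3 (0.45 and 0.50, 2 of 3), Cldn1 (0.53, 1 of 3) and Cldn12 (0.47, its only other). Cldn5 and Cldn15 were above the line in both groups and did not pass the test, at 11.91 and 11.88 with the antibody against 12.16 and 12.13 with IgG for Cldn5 (-0.25) and at 9.63 and 9.80 against 9.64 and 9.57 for Cldn15 (0.11).

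Krt79 had the largest difference of all 74 genes with the antibody. It was at 7.72 and 7.93 with the antibody against 8.94 and 9.00 with IgG, a difference of -1.14 ± 0.14 (2.21-fold lower), with the groups well apart. Krt222 (-0.42 ± 0.14, and -0.67 on its other probe set, adjusted p 2.93e-04 in limma), Krt80 (-0.37 ± 0.13) and Krt84 (0.48 ± 0.16) had smaller differences. Krt80 lost its call whichever array was left out (adjusted p 0.115 to 0.155, limma), Krt222 without IgG array a (0.141) or either anti-TGF-beta array (0.105 without a, 0.0789 without b), and Krt84 without IgG array a (0.31, adjusted p 0.304) or anti-TGF-beta array b (0.39, adjusted p 0.206).

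Mesothelial genes were higher beside Krt7, Krt18 and Krt19 in this experiment. Of 7 markers 6 were higher with the antibody (85.7%, against 11.7% of all genes), with mean levels of 8.33 to 8.37 against 7.56 to 7.71 with IgG. Epididymis genes were low in both groups, at 4.76 to 4.77 with the antibody against 4.66 to 4.74 with IgG. Skeletal muscle genes stood at 11.58 to 11.59 against 6.43 on both IgG arrays, and hepatocyte genes at 6.68 to 6.75 against 9.69 to 9.74. The part of other tissues in the keratin differences was not tested.

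Some genes of the same junctions had the signs of Krt8 and Cldn3. Of 27 measured junction partners, 0 were higher and 4 lower (14.8%) in Smad3-/- on HFD, against 4.74% and 6.05% of all genes, and 7 were higher (25.9%) and 2 lower (7.41%) on RD, against 8.40% and 15.6%. Perp, a desmosome protein, had -0.60 ± 0.17 on HFD and 1.81 ± 0.17 on RD. Desmoplakin (Dsp), which anchors keratin filaments to desmosomes, had -1.25 ± 0.16 on HFD and 0.63 ± 0.16 on RD. The tight junction scaffold Tjp3 had -0.61 ± 0.15 on HFD and 0.46 ± 0.15 on RD. Of the 27 partners, 9 stayed near the median on all 12 arrays, among them Tjp3 and, of those named below, Marveld2, Cgn, Cxadr and Magi1. The HFD value of Perp lost its call without either WT HFD array or Smad3-/- HFD array a (adjusted p 0.101 to 0.23, limma), and that of Tjp3 without WT HFD array b (0.0975) or Smad3-/- HFD array b (0.0538).

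Other junction partners went another way. Plakophilin 2 (Pkp2), a desmosome protein that also occurs outside epithelia, had -0.92 ± 0.13 on HFD and -1.63 ± 0.13 on RD. Ctnna1, the alpha-catenin that links cadherins to actin, had -1.16 ± 0.11 on RD and an interaction of 0.90 ± 0.15. Marveld2 (tricellulin), found where 3 cells meet, was higher in Smad3-/- on RD by 0.62 ± 0.14. With the antibody 3 partners were higher (11.1%) and 2 lower (7.41%), both shares below the 11.7% and 12.6% of all genes. They were Ppl (periplakin, 0.84 ± 0.13), Cgn (cingulin, 0.68 ± 0.15), Cxadr (0.42 ± 0.14), Magi1 (-0.66 ± 0.15) and Pkp1 (-0.33 ± 0.12). The call of Pkp1 was lost without IgG array b (-0.20, adjusted p 0.388 in limma) or either anti-TGF-beta array (0.122 without a, 0.187 without b). That of Cxadr was lost without IgG array a (adjusted p 0.162, limma) or without either anti-TGF-beta array (0.0692 without a, 0.118 without b).

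Of 17 measured epithelial regulators, 0 were higher and 4 lower (23.5%) in Smad3-/- on HFD, against 4.74% and 6.05% of all genes, and 5 were higher (29.4%) and 0 lower on RD, against 8.40% and 15.6%. Esrp1 and Esrp2, splicing factors of epithelial cells, had -1.14 ± 0.14 and -0.58 ± 0.14 on HFD and 1.19 ± 0.14 and 1.03 ± 0.14 on RD. Elf3, an epithelial ETS factor, had -0.51 ± 0.12 on HFD and 1.03 ± 0.12 on RD, and Pax8, a factor of kidney, thyroid and genital tract epithelia, -0.68 ± 0.14 and 0.95 ± 0.14. The HFD call of Elf3 was lost without WT HFD array b (adjusted p 0.0512, limma) or Smad3-/- HFD array b (0.0768). Those of Esrp2 and Pax8 were lost with the mean of all their probe sets (-0.08 and -0.20). On all 12 arrays, 10 of the 17 regulators stayed near the median, Foxa1 among them. With the antibody Pax8 (0.45 ± 0.14) and Foxa1 (-0.44 ± 0.15) changed, 5.88% in each direction against 11.7% and 12.6% of all genes, and each lost its call without anti-TGF-beta array a (adjusted p 0.153 and 0.217) or either IgG array (0.0568 and 0.0596 without a, 0.0785 and 0.125 without b).

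Of 12 genes linked to mesenchymal transition, 0 were higher and 3 lower (25%) in Smad3-/- on HFD, against 4.74% and 6.05% of all genes, and 0 were higher and 6 lower (50%) on RD, against 8.40% and 15.6%. The 3 on HFD were Vim, S100a4 (-0.49) and Itgav (-0.51). S100a4 lost its call there without WT HFD array b (-0.29) or Smad3-/- HFD array a (-0.30), and Itgav without the second of these (-0.29) or with the mean of all its probe sets (-0.08). Vim, the intermediate filament of mesenchymal cells, had -0.57 ± 0.10 on HFD and -2.02 ± 0.10 on RD, and Fn1 (fibronectin) had -2.02 ± 0.10 on RD. S100a4, a calcium-binding protein of fibroblasts and immune cells, had -1.54 ± 0.14 on RD, and Twist1, a transcription factor, -0.61 ± 0.15. The interaction was positive for 4 (33.3%, against 12.0% of all genes), namely Fn1 (1.89 ± 0.14), Vim (1.45 ± 0.14), S100a4 (1.05 ± 0.21) and Zeb1 (0.83 ± 0.18), and negative for Itgav (-0.59 ± 0.18; 8.33%, against 6.77%). For Zeb1, a repressor of Cdh1, the mean of all its probe sets gave 0.17, not past the test. With the antibody 2 were higher (16.7%, against 11.7% of all genes), namely Cdh2, N-cadherin (0.93 ± 0.18), and Twist2 (0.51 ± 0.12). Cdh2 was 1 of 3 genes of this list that stayed near the median on all 12 arrays, with means of 5.96 with the antibody and 5.04 with IgG. Lower were 5 (41.7%, against 12.6%), namely S100a4 (-1.80 ± 0.14), Tgfb1 (-0.83 ± 0.12), Itgav (-0.53 ± 0.13), Fn1 (-0.50 ± 0.10) and Vim (-0.48 ± 0.10). Twist2 lost its call without IgG array b (0.33, adjusted p 0.117 in limma). The Itgav interaction lost it with the mean of its probe sets (-0.19), and without WT RD array a (adjusted p 0.0801), Smad3-/- RD array a (0.0858) or Smad3-/- HFD array a (-0.37, adjusted p 0.181). Pkp1, Twist2 and the interaction of Itgav, and Itgav and Vim with the antibody, were named after their values were seen, to complete the counts.

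For the 4 members with the widest range over the diet and genotype groups, the gene of most similar profile was found by Pearson correlation over the 8 arrays, which form 4 groups that are themselves apart. Over these arrays Cldn2 was nearest to Sprr2k (r = 0.998), followed by Lcn5 (0.992). Krt18 was nearest to Spint4 (0.997), Cldn3 to Wwc1 (0.996) and Krt19 to Nab2 (0.989). Lcn5, an epididymis gene, had group means of 5.38 in Smad3-/- HFD, 9.10 in WT HFD, 14.02 in Smad3-/- RD and 5.14 in WT RD, and Spint4 had 6.14 in Smad3-/- HFD, 9.88 in WT HFD, 10.17 in Smad3-/- RD and 5.50 in WT RD.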

How the data were processed

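Each of the 12 mouse samples, with 6 ug of total RNA per the labels' protocols, was hybridised to its own Affymetrix array. The deposited values are log2 RMA values, for which the submitters' processing notes name Partek as the authors' software, with no version known here. Probe sets were named by the platform annotation: of 45101, 34958 name 1 gene, 932 several and 9211 none. Gene IDs of 18033 of the 18194 genes matched a RefSeq table of GRCm38.p6, with 0 symbols changed. No detection calls were used, and the number of arrays limits the precision.

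The 6 group means over 12 arrays were fitted with limma 3.58.1 (R 4.3.3, eBayes with an intensity trend, Benjamini-Hochberg over all genes, threshold 0.05). A gene's own spread had 6 residual degrees of freedom, and the prior drawn from all genes added a median of 20.4. The script was tested on simulated data. Differences run Smad3-/- minus wild type, HFD minus RD and anti-TGF-beta minus IgG. The genes named by value are 30: Epcam, Cdh1 and those above the line or called, by widest range of group means, with up to 4 genes of each accompanying list per comparison by smallest p. The genes and lists were chosen with earlier results of these data known, and families within the 74 after the files were seen. Alternatives were a prior without the trend, averaging all probe sets of a gene, a filter on dim genes (40th percentile), median centring, quantile normalization over 12 arrays, 1 experiment at a time, a replicate block, each array left out and, chosen after seeing the data, every other probe set. Deviations of same-lettered arrays correlated at -0.161 to 0.169 between groups, so the letters a and b were not taken to pair samples.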

Additional observations from a re-analysis of the deposited data

Results flagged for a closer look

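The genotype difference was not the same on the 2 diets for 15 of the 74 genes, by the interaction term of the limma fit. In 13 of them (17.6% of the 74, against 6.77% of all genes) the difference (Smad3-/- minus WT) was lower on high fat than on regular diet. The interaction was -3.80 for Cldn2, -3.75 for Krt18, -2.84 for Cldn7, -2.72 for Krt8, -2.48 for Cldn3 and -2.30 for Cdh1. It was -1.48 for Cldn23, -1.30 for Cldn10, -0.98 for Krt15, -0.73 for Cldn1, -0.68 for Cldn4, -0.67 for Krt36 and -0.54 for Krt42. In the other 2 (2.7%, against 12.0% of all genes) it was positive, at 1.08 for Cldn5 and 1.25 for Cldn22. Epididymis genes had the same sign as the first 13 in 7 of 7 cases, endothelial genes that passed had the sign of Cldn5 in 4 of 8, and their part in the values was not tested.

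Of these 15, Cldn1, Cldn4, Krt36 and Krt42 did not pass when certain arrays were left out. Cldn4 lost its call without WT RD array a, WT HFD array a, Smad3-/- RD array b or Smad3-/- HFD array a (-0.53 to -0.65). Krt36 lost it without WT RD array a, WT HFD array a, Smad3-/- RD array a or Smad3-/- HFD array b (-0.49 to -0.63). For Cldn1 this was so without WT HFD array a (-0.65), and for Krt42 without Smad3-/- RD array b (-0.43). With the mean of its probe sets, Cldn1 was at 0.003.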

How the results depend on the processing

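Leaving out each array in turn, the count of changed genes ran from 6 to 11 for the antibody, against 11, and from 12 to 17 for diet in Smad3-/- mice, against 20. In the replicate block fit the counts were 11 for genotype on HFD, 18 on RD, 20 for diet in Smad3-/-, 11 in WT, 16 for the interaction and 10 for the antibody, against 11, 17, 20, 11, 15 and 11. A line at 0.5 or 2 log2 units left 32 or 60 genes near the median, against 46, and averaging all probe sets of a gene 49. Of 180 pairs of a named gene and a comparison 85 were called, and 57 of these kept the call in every other setting named in the methods, other probe sets aside. No scaling moved the median of all genes by more than 0.06.

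Reversed values came from probe sets. For Cldn1 they were -0.0541 for genotype on RD, 0.597 for genotype on HFD (adjusted p 0.019, limma), 0.28 and 0.37 for diet in Smad3-/- and 0.45 and 0.40 for the interaction on other probe sets, and with the mean of its probe sets 0.0283 for diet in Smad3-/- and 0.003 for the interaction. For diet in Smad3-/-, other probe sets gave 0.21 for Krt14 and 0.0852 for Krt42. The cause was not tested. Values that changed sign while passing in neither setting were 59 and are not counted as reversed. Without detection calls, differences of genes near the median may include background signal.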
